A study of Mus musculus with 2 samples.

Results

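The axon guidance ligands and receptors are the secreted and membrane proteins that steer growing axons, and 69 of 20661 autosomal protein-coding mouse genes belong to them here. They were chosen by gene symbol as the semaphorins (19 genes), plexins and neuropilins (9), Slits and Robos (7), netrins with Unc5 and Dcc (13), ephrins (7) and Eph receptors (14). Sema6d was left out by the rule. The label was checked against the symbols: Unc50 fits the pattern by spelling alone, and Unc5cl is not a netrin receptor. Values without these 2 genes are given where they matter. Loops were mapped by Hi-C, a method that joins and sequences pieces of DNA lying close together in the nucleus. The MCAO group is mouse cortex of the operated side, in which a filament in the middle cerebral artery stopped the flow for 1 h before 6 h of reperfusion. The sham group is cortex of the same side from animals that were operated on without the occlusion and recovered for 6 h. No strain, age or genotype is used here. The labels speak of 3 cortices per group, but 1 loop list exists for each group, so no difference between MCAO and sham could be tested or checked in a replicate. Intervals are at the 95% level throughout and reflect counting error only.

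Guidance cues act in pairs of ligand and receptor. Secreted class 3 semaphorins bind neuropilins, which signal through plexins. Slits bind Robos, netrins bind Dcc and the Unc5 receptors, and ephrins bind Eph receptors on a neighbouring cell. In the adult cortex many of these proteins remain at synapses, on blood vessels and on glia, and several limit the regrowth of axons after injury.

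A loop is a pair of anchors, supported by paired-end tags (PETs) that connect its anchors, and both lists begin at 10 PETs. A loop was given to a gene when an anchor lay within 2.5 kb of either end of the gene. The MCAO list held 15592 loops and the sham list 14779. Library depths were worked out from a signal deposited with each loop, and were not counted. They were 40550536 PETs in MCAO and 34974213 in sham, a depth ratio of 1.16, and stand for whole libraries, not for PETs in loops. Member loops had anchors with a median width of 28.9 kb in MCAO and 33.8 kb in sham, so an anchor marks a neighbourhood and not a single promoter. In such bulk tissue, fewer cells of a type that hold a loop and fewer contacts per cell cannot be told apart.

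The start sites of 5 members on which the results turn are shown first, because anchors of the loops described below cover them. They were chosen after their values were seen. The Sema3a start site lies inside the gene, away from both of its ends. Each sequence runs from 250 bases before to 50 bases after the RefSeq start on GRCm38.p6, 5′ to 3′ on the strand of the gene, with GC boxes (GGGCGG, searched on both strands) in capitals. Sema3a lies at chr5:13396534-13396833 on the plus strand, Nrp1 at chr8:128358823-128359122 on the plus strand, Ntng1 at chr3:110143423-110143722 on the minus strand, Efnb2 at chr8:8661193-8661492 on the minus strand and Epha4 at chr1:77515039-77515338 on the minus strand.
Sema3a: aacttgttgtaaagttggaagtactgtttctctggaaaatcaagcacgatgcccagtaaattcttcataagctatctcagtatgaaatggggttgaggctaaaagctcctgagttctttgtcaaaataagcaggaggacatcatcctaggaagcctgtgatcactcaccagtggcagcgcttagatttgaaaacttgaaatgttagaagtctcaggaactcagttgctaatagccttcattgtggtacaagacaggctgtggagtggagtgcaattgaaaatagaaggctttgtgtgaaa
Nrp1: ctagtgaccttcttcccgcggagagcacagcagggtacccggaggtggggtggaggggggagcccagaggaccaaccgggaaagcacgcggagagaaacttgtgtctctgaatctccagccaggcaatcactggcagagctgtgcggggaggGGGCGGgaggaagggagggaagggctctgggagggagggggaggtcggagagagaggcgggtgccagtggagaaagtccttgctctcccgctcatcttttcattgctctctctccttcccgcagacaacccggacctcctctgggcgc
Ntng1: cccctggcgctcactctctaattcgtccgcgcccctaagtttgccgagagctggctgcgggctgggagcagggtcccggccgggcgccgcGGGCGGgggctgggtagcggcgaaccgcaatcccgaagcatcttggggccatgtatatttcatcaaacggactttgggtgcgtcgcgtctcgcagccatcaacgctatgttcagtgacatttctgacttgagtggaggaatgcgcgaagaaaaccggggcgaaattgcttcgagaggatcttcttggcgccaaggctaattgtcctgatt
Efnb2: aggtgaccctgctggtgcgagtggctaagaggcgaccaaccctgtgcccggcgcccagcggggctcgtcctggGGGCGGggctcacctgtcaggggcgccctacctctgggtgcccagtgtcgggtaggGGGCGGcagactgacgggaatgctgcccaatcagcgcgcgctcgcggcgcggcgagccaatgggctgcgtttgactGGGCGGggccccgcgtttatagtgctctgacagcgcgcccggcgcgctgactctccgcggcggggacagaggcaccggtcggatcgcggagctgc
Epha4: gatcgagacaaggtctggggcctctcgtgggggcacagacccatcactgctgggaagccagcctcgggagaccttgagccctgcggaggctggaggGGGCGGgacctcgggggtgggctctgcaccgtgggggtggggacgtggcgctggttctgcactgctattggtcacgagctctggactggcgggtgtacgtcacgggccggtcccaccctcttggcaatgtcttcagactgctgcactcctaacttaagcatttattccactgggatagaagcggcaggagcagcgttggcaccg

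The Efnb2 window held 3 GC boxes, the Nrp1, Ntng1 and Epha4 windows 1 each and the Sema3a window none. Among 74 listed promoters of 59 members, 73.0% held a GC box, against 47.0% of 20084 promoters of autosomal protein-coding genes. Member promoters were also richer in G and C, with a median of 64.3% against 57.0%, and the part of base composition in the GC box share was not tested. The motif of the insulator protein CTCF (its consensus searched on both strands) was found in 2.70% of member promoters and 2.39% of all. That of the stress-responsive factor AP-1 (TGANTCA) was found in 4.05% and 7.06%. Neither motif was in the 5 windows shown, which says only that these letters are not there.

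More loops were listed at axon guidance genes in MCAO than in sham, by about as much as at all genes. The members had 137 distinct loops in MCAO and 103 in sham, a ratio of 1.33 (1.02 to 1.74), while all autosomal genes had 9405 and 7610, a ratio of 1.24 (1.20 to 1.27). Per PET the ratios were 1.15 for the members and 1.07 for all genes. With the MCAO library thinned to the depth of sham, the ratios were 1.06 and 0.944. Without Unc50 and Unc5cl the members had 133 and 102 loops, a ratio of 1.30 (1.00 to 1.71).

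A loop was present at 55 members in MCAO (79.7%, against 49.6% of all genes) and at 46 in sham (66.7%, against 44.5%). The members are long, with a median of 60.9 kb against 17.5 kb for all genes, and the part of length in these shares was not tested. Over 100 kb, 93.75% of members had a loop in MCAO and 81.25% in sham, against 70.5% and 66.2% of all genes that long. Up to 100 kb the shares were 67.6% and 54.1%, against 47.0% and 41.7%. More loops were listed in MCAO at 33 members (47.8%, background 29.7%) and fewer at 17 (24.6%, background 21.3%). The number was equal at 9. Of members over 100 kb, 40.6% had more loops in MCAO and 37.5% fewer, against 39.1% and 27.9% of all genes that long. Of members up to 100 kb, 54.1% had more and 13.5% fewer, against 28.6% and 20.5%. Members with a loop in MCAO and none in sham numbered 13 (18.8%, background 19.2%), and 4 had the opposite pattern (5.80%, background 14.0%). A difference of at least 3 loops was found at 4 members with more in MCAO (5.80%, background 3.18%) and at 0 with fewer (background 1.39%). No loop in either list was given to Efnb3, Sema3g, Plxnb2, Sema5b, Slit1, Epha10, Epha8, Epha2, Ephb4 or Sema4f.

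**Figure D1:**
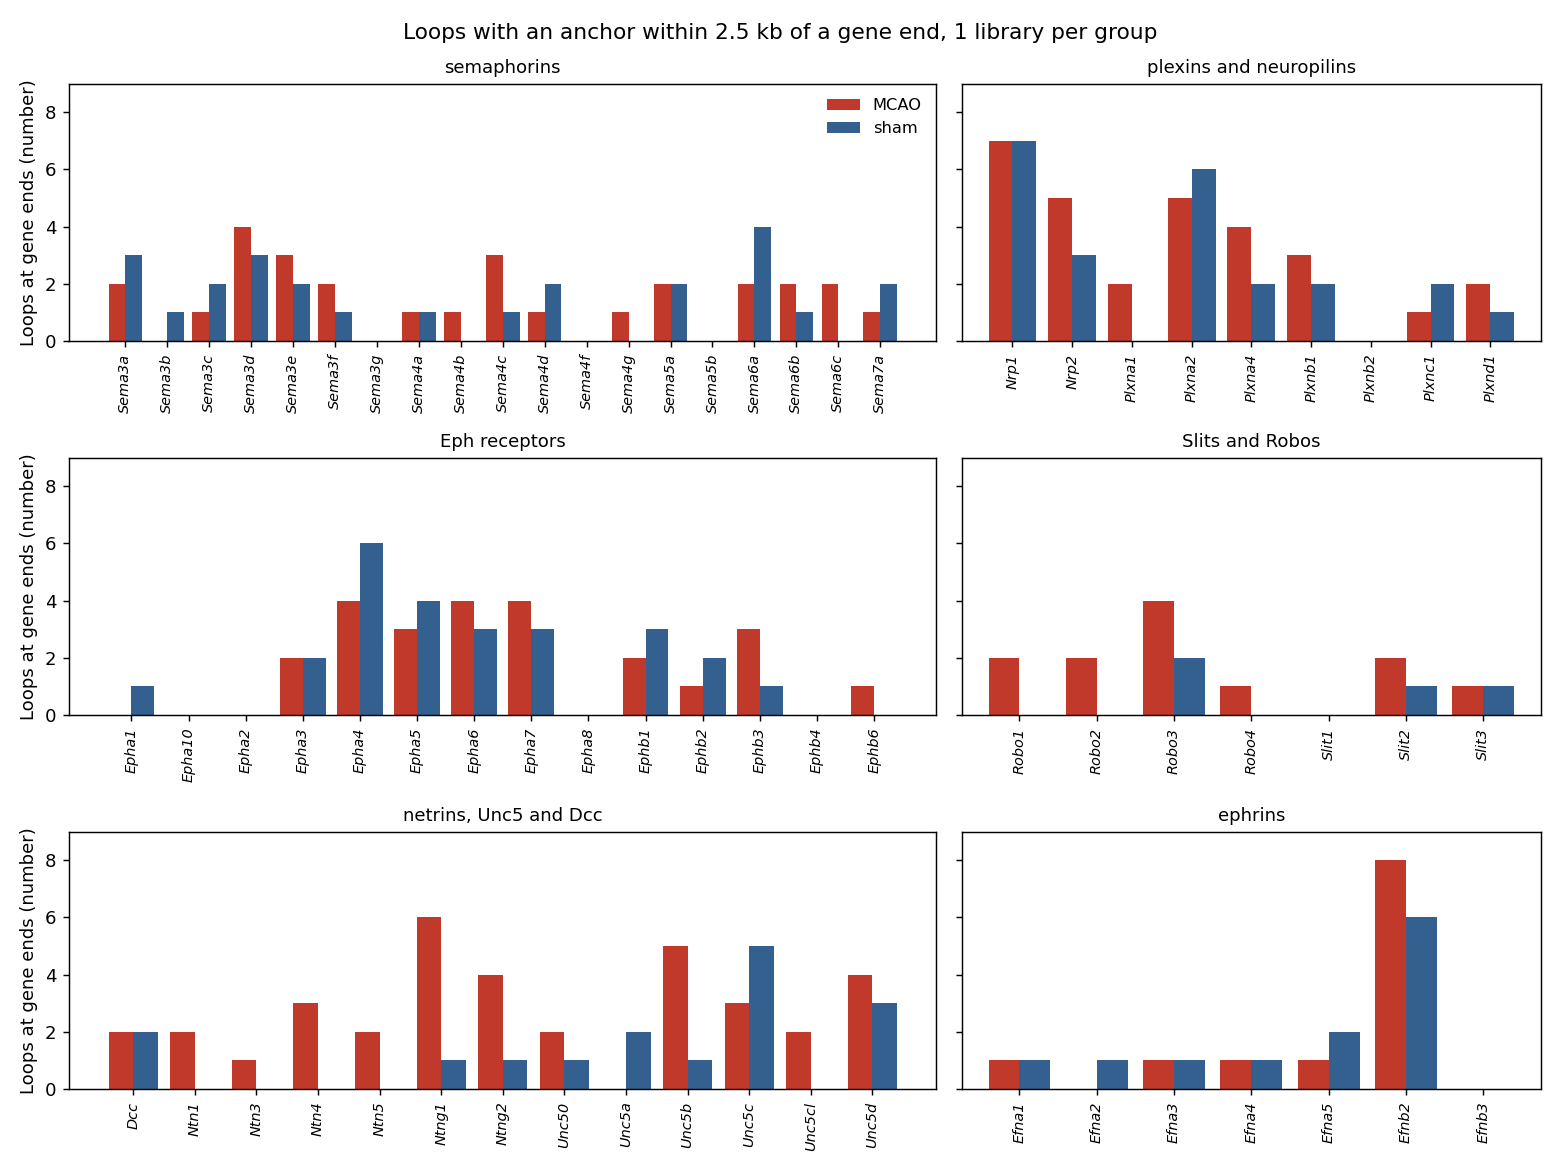
Number of loops with an anchor within 2.5 kb of a gene end (vertical axis) for each of the 69 members, by family, with 1 MCAO library (red, left bar) and 1 sham library (blue, right bar). Efnb2 reached 8 and 6 loops, Nrp1 7 and 7, and Ntng1 6 and 1; most other members had fewer than 5.

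Semaphorins had 27 loops in MCAO and 23 in sham, a ratio of 1.17 (0.648 to 2.14), with more at 8 genes and fewer at 6. The neighbouring class 3 genes Sema3d, Sema3a and Sema3e on chromosome 5 were joined to each other at their ends, by the rule of 2.5 kb, and no other pair of different members was. These genes encode secreted ligands, of which the Sema3a product repels cortical axons. The far end of Sema3a (gene at chr5:13124822-13603485) was joined to the far end of Sema3e (chr5:14025276-14256689) by a loop of 75 PETs in MCAO and 68 in sham. This loop stood in both lists, with a ratio of PETs per 1000000 of 0.951 (0.676 to 1.34). A loop from the end of Sema3d (chr5:12383161-12588953) to the end of Sema3a had 94 PETs in sham, the most of any member loop in that list. Its partner in the MCAO list had 24 PETs and did not reach both gene ends. The anchors of that pair summed to 39.0 kb in MCAO and 200 kb in sham, and its density (PETs per kb of anchor per 1000000 PETs) had a ratio of 1.13, against 0.220 by PETs. The end of Sema3d was also joined to the start site of Sema3a shown above, with 18 PETs in MCAO and 49 in sham. The ratio was 0.317 (0.174 to 0.554). Because that site lies inside Sema3a, this loop is also counted below among the interior loops of Sema3a. The loop between Sema3a and Sema3e thus differed by less than counting error. Both of these pairs between Sema3d and Sema3a had fewer PETs in MCAO and narrower anchors. Anchors of the Sema3d loop to the Sema3a start site summed to 102 kb in MCAO and 143 kb in sham. The density ratio of that loop was 0.443, so the densities of these pairs lay on opposite sides of 1. The sham loop of 49 PETs had another MCAO partner, of 10 PETs, from the end of Sema3d to the inside of Sema3a. A further MCAO loop of 12 PETs, also matched in the sham list, joined the insides of both genes. The ratios set single loops against each other and do not add up such loops.

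**Figure D2:**
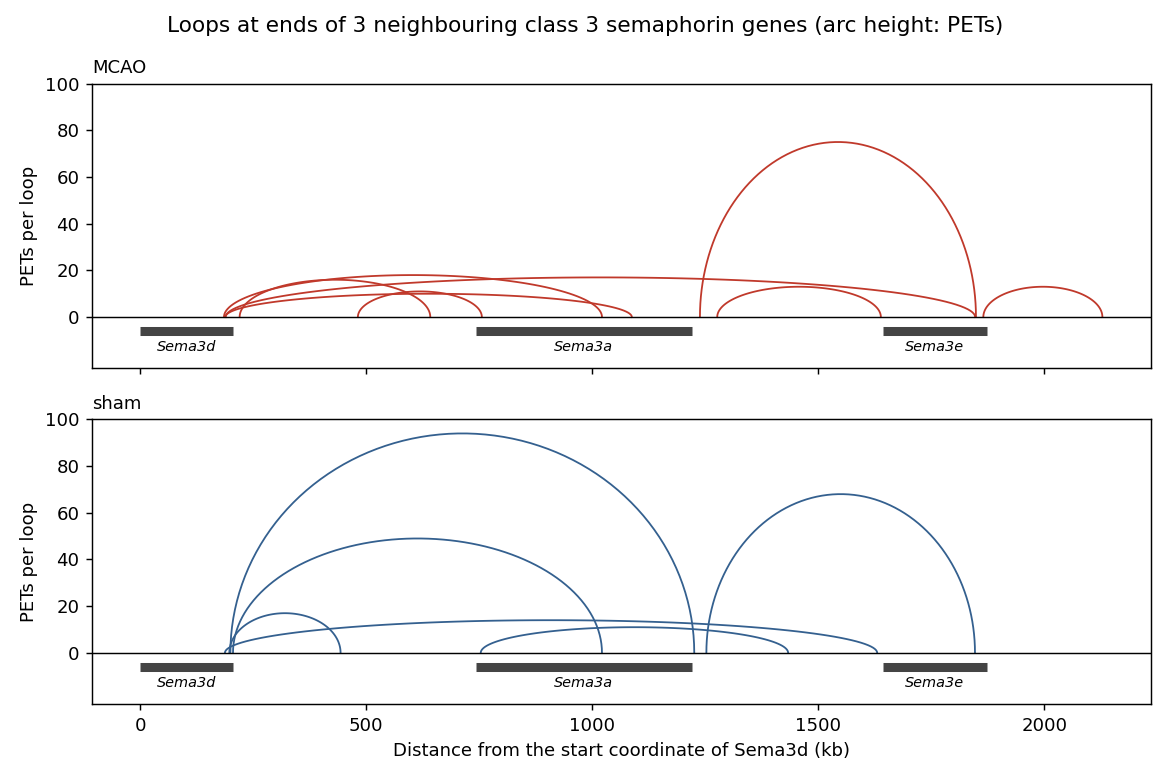
Loops at ends of Sema3d, Sema3a and Sema3e in MCAO (top) and sham (bottom); the horizontal axis is the distance from the start coordinate of Sema3d in kb, arcs join anchor midpoints, arc height is the number of PETs and grey bars are the genes. The Sema3a to Sema3e arc reached 75 and 68 PETs, and the arc of 94 PETs from Sema3d to Sema3a is drawn in sham alone, since its MCAO partner of 24 PETs did not reach both gene ends.

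Sema3d had 4 loops in MCAO, with 18, 17, 16 and 10 PETs, and 3 in sham, with 94, 49 and 17. All 7 ran downstream of the gene, toward Sema3a. Sema6a, a membrane semaphorin that binds A-type plexins, had 2 loops in MCAO (24 and 16 PETs) and 4 in sham (47, 15, 11 and 10). No other semaphorin had 2 fewer loops in MCAO. Sema5a, a membrane semaphorin of both attractive and repulsive action, had the same 2 loops in each list. They had 26 and 33 PETs in MCAO and 74 and 65 in sham, ratios of 0.303 (0.186 to 0.480) and 0.438 (0.279 to 0.676). Both were weaker in MCAO by PETs and, at 0.570 and 0.629, by density. Sema3c, another secreted ligand, had a loop of 29 PETs in each list, with a ratio of 0.862 and an interval that holds 1. A second sham loop of Sema3c had 73 PETs, and its MCAO partner of 16 PETs did not reach the gene ends.

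Plexins and neuropilins, the receptors of semaphorins, had 29 loops in MCAO and 23 in sham, a ratio of 1.26 (0.704 to 2.28), with more at 5 genes and fewer at 2. Nrp1, the co-receptor of Sema3a and of vascular endothelial growth factor, had 7 loops in each list. Their PETs were 64, 48, 31, 19, 16, 14 and 11 in MCAO and 54, 38, 31, 29, 19, 12 and 10 in sham. All 14 ran upstream of the gene (chr8:128358591-128505476), over spans of up to 1390 kb, and 5 in each list had an anchor at the start site. Upstream loops made up 51.6% (42.4 to 60.8) of MCAO and 56.5% (45.8 to 66.8) of sham gene-loop pairs of members with a known strand. The shares for all genes were 46.9% and 47.5%, and the member intervals hold them. These intervals are wide, so they do not decide whether the members as a group lean to a side. The Nrp1 loop of 64 PETs in MCAO had 2 partners in sham. Against the nearer, of 19 PETs, its ratio was 2.91 (1.72 to 5.14), and against the other, of 54 PETs, it was 1.02. Nrp2, the co-receptor of Sema3f, also had only upstream loops, 5 in MCAO (55, 51, 45, 23 and 20 PETs) and 3 in sham (26, 19 and 11). Among loops of 20 or more PETs the Nrp2 numbers were 5 and 1, so all its MCAO loops were well supported. The MCAO loop of 51 PETs was the partner of both sham loops of 19 and 11 PETs. The difference at this minimum thus also depends on how contacts were split into loops. Several loops of a gene share an anchor, and these directions were looked at after the data were seen.

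Plxna2, a receptor for class 3 and class 6 semaphorins, had 5 loops in MCAO (32, 27, 22, 15 and 10 PETs) and 6 in sham (25, 22, 22, 21, 13 and 11). Plxnb1, the receptor of Sema4d, held the MCAO member loop with the most PETs. It joined the neighbourhood of Plxnb1 (chr9:109093849-109119915) to an anchor 757 kb away that covers ends of Camp, Cdc25a, Gm51691, Nme6 and Spink8, with 83 PETs in MCAO and 59 in sham (ratio 1.21, 0.859 to 1.72). The interval holds 1, so the loop did not differ beyond counting error.

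Slits and Robos had 11 loops in MCAO and 4 in sham, a ratio of 2.75 (0.815 to 11.8), with more at 5 genes and fewer at 0. Robo3, which lets axons cross the midline, had 4 loops in MCAO (37, 26, 13 and 11 PETs) and 2 in sham (12 and 10). Slit2, a secreted repellent, had 2 loops in MCAO (14 and 10 PETs) and 1 in sham (28). The netrin family had 36 loops in MCAO and 16 in sham, a ratio of 2.25 (1.22 to 4.34), with more at 10 genes and fewer at 2. Of the 6 family intervals this is the 1 without the value 1, and its lower bound lies below the ratio of all genes, 1.24. Without Unc50 and Unc5cl the family had 32 and 15 loops, a ratio of 2.13 (1.12 to 4.24).

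The netrin ligands carried most of the difference of the family, a split made after the values were seen and given without an interval. The 6 netrin genes had 18 loops in MCAO and 2 in sham, while Dcc and Unc5a to Unc5d had 14 and 13. All 6 netrin genes had a loop in MCAO and 2 had one in sham. Their MCAO loops had 10 to 20 PETs, 8 of them with 10 or 11, close to the minimum of the lists. After thinning to the sham depth the numbers were 12 and 2, with at least 15 PETs they were 5 and 1, and with at least 20 PETs 1 and 1.

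Ntng1 encodes netrin G1, a membrane-bound netrin that organises synapses and does not bind Dcc. It had 6 loops in MCAO, with 19, 18, 13, 12, 10 and 10 PETs, and 1 in sham, with 43. Anchors of 5 of its MCAO loops and of the sham loop covered the start site shown above. Its single loop found in both lists had 19 PETs in MCAO and 43 in sham, a ratio of 0.381 (0.210 to 0.668). More loops and a weaker shared loop thus went together at Ntng1 in MCAO. Ntng2, its close relative, had 4 loops in MCAO (16, 12, 11 and 10 PETs) and 1 in sham (12). Ntn4, a netrin of basement membranes, had 3 in MCAO (14, 11 and 10 PETs) and 0 in sham, and the loop of 14 PETs joined its ends to each other. Counting only loops of 15 or more PETs, MCAO exceeded sham by 1 loop at Ntng1, 1 at Ntng2 and 0 at Ntn4. These 3 differences thus rested on loops near the minimum.

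Unc5b, a netrin receptor of blood vessels and neurons, had 5 loops in MCAO (57, 17, 16, 11 and 10 PETs) and 1 in sham (11). Within 10 kb of the gene ends the numbers were 5 and 4, so sham loops lay just outside the window. The strongest MCAO loop had a sham partner of 23 PETs, a ratio of 2.14 (1.30 to 3.64). Unc5c, a receptor for repulsion from netrin, went the other way, with 3 loops in MCAO (23, 18 and 11 PETs) and 5 in sham (29, 20, 20, 15 and 14). Its loop of 2536 kb had 23 PETs in MCAO and 20 in sham. Unc5d, of the same receptors, had 4 loops in MCAO, the highest with 19 PETs, and 3 in sham, of which that with 15 PETs joined its ends. At Unc5cl a loop of 29 PETs in MCAO had a sham partner of 25 PETs that did not reach the gene.

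Ephrins had 10 loops in MCAO and 12 in sham, a ratio of 0.833 (0.323 to 2.10). Most of them lay at Efnb2, which encodes ephrin-B2, a membrane ligand of arteries and neurons. It had 8 loops in MCAO (65, 38, 23, 13, 13, 11, 10 and 10 PETs) and 6 in sham (41, 39, 20, 14, 12 and 11). The loop of 65 PETs, 500 kb long, had a sham partner of 41 (ratio 1.37, 0.911 to 2.07), within counting error. Efna5, a ligand anchored in the membrane by a lipid, had 1 loop in MCAO (11 PETs) and 2 in sham (10 each). Efna1, Efna3 and Efna4, neighbours on chromosome 3, shared a single MCAO loop of 29 PETs and had separate sham loops of 10, 10 and 12 PETs.

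Eph receptors had 24 loops in MCAO and 25 in sham, a ratio of 0.960 (0.525 to 1.75), with more at 4 genes and fewer at 5. Epha4, a receptor for both classes of ephrin that restricts axon growth, had 4 loops in MCAO (24, 19, 16 and 10 PETs) and 6 in sham (51, 44, 18, 16, 12 and 11). Its loop of 24 PETs in MCAO had 51 in sham, a ratio of 0.406 (0.239 to 0.672). That sham loop was also the partner of the MCAO loop of 10 PETs, which this ratio leaves out. Epha6, a receptor of ephrin-A ligands, had 4 loops in MCAO (47, 18, 14 and 12 PETs) and 3 in sham (37, 29 and 11). Epha7, of the same class, had 4 in MCAO (40, 12, 12 and 10 PETs) and 3 in sham (52, 22 and 11), with a loop of 835 kb at 40 PETs in MCAO and 52 in sham. Ephb1, a receptor of ephrin-B ligands, had 2 loops in MCAO (82 and 35 PETs) and 3 in sham (46, 37 and 20), and both of its shared loops were stronger in MCAO, with ratios of 1.54 (1.06 to 2.26) and 2.74 (1.36 to 5.99). Among shared loops of Eph receptors whose intervals did not hold 1, the 4 lower ones lay at receptors of the A class and the 2 higher ones at Ephb1. By density, the lower pair at Epha3 had a ratio of 1.08. The intervals of the other pairs held 1, with ratios of 0.910 at Epha4, 0.507 at Epha5, 1.19 at Epha6, 0.663 at Epha7 and 1.87 at Ephb3. This grouping was made after the values were seen, and a split by class was not tested.

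**Figure D3:**
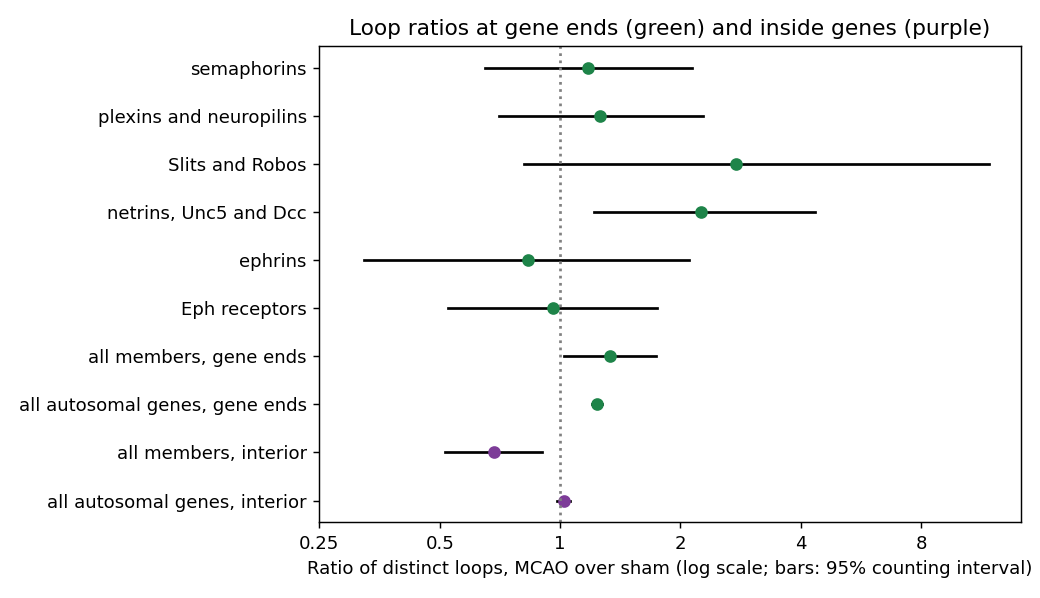
Ratio of distinct loops, MCAO over sham, on a log axis, for the 6 families and all members at gene ends (green) and for loops inside genes (purple), each beside all autosomal genes; bars are 95% counting intervals. The netrin family, at 2.25, is the single family whose bar does not cross 1, and interior loops of the members, at 0.682, lie on the other side of 1 from their gene-end loops, at 1.33.

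Loops found in both lists were compared next. A loop was shared when the midpoints of its anchors each lay within 1 anchor width of those of a loop in the other list. Shared loops made up 44 of 137 member loops in MCAO, 32.1% (24.4 to 40.6), and 42 of 103 in sham, 40.8% (31.2 to 50.9). The shares over all autosomal gene-end loops were 28.2% and 34.5%. Pairs were kept where each loop was the nearest partner of the other. Over 42 pairs the median log2 ratio of PETs per 1000000 was -0.17, against -0.11 over 2443 pairs at all genes. The counting interval lay above 1 in 7 pairs (16.7%, background 11.6%), at Ephb1 with 2, Nrp1, Nrp2, Plxnd1, Robo3 and Unc5b. It lay below 1 in 10 pairs (23.8%, background 19.0%), at Sema5a with 2, Epha3, Epha4, Epha6, Epha7, Ntng1, Plxna4, Sema3d and Slit2. In the Ephb1 pair of 35 and 11 PETs, and in the pairs at Unc5b and Slit2, the sham loop did not reach the gene ends. Some loops of these pairs had a further partner in the other list, for example at Epha4, Nrp1, Nrp2 and Sema3d, which the ratios leave out.

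Anchor width moved with these ratios. Anchors were wider in MCAO in 7 of the 7 higher pairs and narrower in 10 of the 10 lower ones. Across the 42 pairs the width ratio and the PET ratio had a Spearman's rho of 0.912, given as a description, since the pairs share their libraries. At Epha3, an ephrin-A receptor named after its values were seen, the shared loop had 17 PETs in MCAO and 87 in sham. Its anchors summed to 31.9 kb and 205 kb, and its density ratio was 1.08 against a PET ratio of 0.169. At Nrp1 the loop of 64 and 19 PETs had anchors of 176 kb and 76.3 kb and a density ratio of 1.26. Its other sham partner, of 54 PETs, had anchors of 177 kb and gave a density ratio of 1.03. Over the 7 higher pairs the density ratio was 0.773 to 1.35, and over the 10 lower pairs 0.443 to 2.12. The pairs at Ntng1 and Epha4 that were lower by PETs had density ratios of 0.545 and 0.540. Those at Ephb1, higher by PETs, had 1.22 and 1.10, and that at Unc5b 1.35. The part of anchor width in the PET differences was not tested further.

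**Figure D4:**
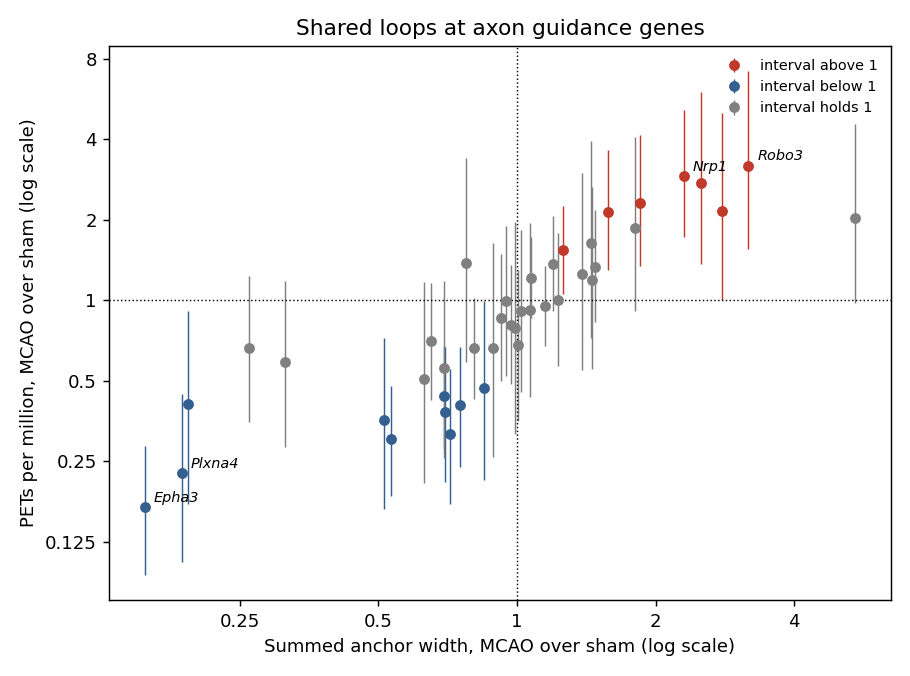
Each point is 1 of 42 loops at axon guidance genes found in both lists: summed anchor width, MCAO over sham (horizontal, log scale), against PETs per 1000000, MCAO over sham (vertical, log scale), with 95% counting intervals. Red and blue points have intervals above and below 1; all 7 red points lie to the right of a width ratio of 1 and all 10 blue points to the left.

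Member loops were long. Their median span was 476 kb in MCAO and 635 kb in sham, against 290 kb and 359 kb for all autosomal gene-end loops, and 27 and 32 exceeded 1 Mb. The median was 15 PETs in each library, and 42 MCAO loops (30.7%) and 40 sham loops (38.8%) had at least 20 PETs, against 26.8% and 24.8% over all genes. With at least 20 PETs the members had a loop ratio of 1.05 (0.665 to 1.66) and all genes 1.34. The higher number of member loops in MCAO was thus mostly made up of loops with fewer than 20 PETs, 95 in MCAO and 63 in sham. The far anchor lay at another gene end in 34.3% of MCAO and 27.2% of sham member loops, against 34.3% and 35.0% over all genes. By length, members of up to 100 kb had 53 loops in MCAO and 29 in sham, a ratio of 1.83 (1.14 to 2.98), and longer members 84 and 74, a ratio of 1.14 (0.821 to 1.57). All genes of these lengths had ratios of 1.23 and 1.22. This split was also made after the data were seen.

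Inside the genes the numbers ran the other way. Loops with an anchor in a member but none within 2.5 kb of its ends numbered 88 in MCAO and 129 in sham, a ratio of 0.682 (0.514 to 0.901), against 1.02 (0.985 to 1.06) over all autosomal genes. Fewer were listed in MCAO at 20 members (29.0%, background 6.84%) and more at 11 (15.9%, background 8.01%). Long genes hold most interior loops, so members over 100 kb were set beside all genes of that length: 19 of 32 members (59.4%) had fewer in MCAO against 33.7% of such genes, and 5 (15.6%) had more against 34.6%. Their ratios were 0.638 (0.477 to 0.849) and 0.959 (0.919 to 1.00). In regions with at most 3 genes per Mb the ratios came closer, 0.608 (0.436 to 0.842) for 17 long members and 0.806 (0.756 to 0.859) for 501 long genes, and the intervals overlap. Some interior loops cover a listed start site inside a gene, for example at Robo2, Robo1, Sema3a and Sema4d. Interior thus means away from the gene ends, not away from every start site.

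At least 3 fewer interior loops in MCAO were found at 5 members (7.25%, background 0.997%), all over 100 kb. Among genes of that length the shares were 15.6% of 32 members and 8.39% of 2312 genes. Dcc, the receptor for attraction to netrin, had 8 in MCAO, with 10 to 23 PETs, and 17 in sham, with 10 to 34. Robo2, a Slit receptor and the longest member at 1555 kb, had 6 in MCAO, with 10 to 12 PETs, and 15 in sham, with 10 to 34. Of these, 1 in each list reached into the neighbouring gene Robo1, with 12 PETs in MCAO and 18 in sham. Robo2 interior loops of 1308, 1143 and 1425 kb in MCAO, and of 1306 and 641 kb in sham, covered a start site inside the gene. The ephrin-A receptor genes Epha5, Epha4 and Epha3 had 0 and 7, 0 and 4, and 2 and 5 in MCAO and sham. Both lists had a median of 12 PETs at interior member loops, close to the lowest listed number, so an unlisted loop may lie just under it. Without Dcc and Robo2 the numbers were 75 and 98, a ratio of 0.765 (0.559 to 1.04), and the interval then holds 1. The interior loops were looked at after the data were seen.

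**Figure D5:**
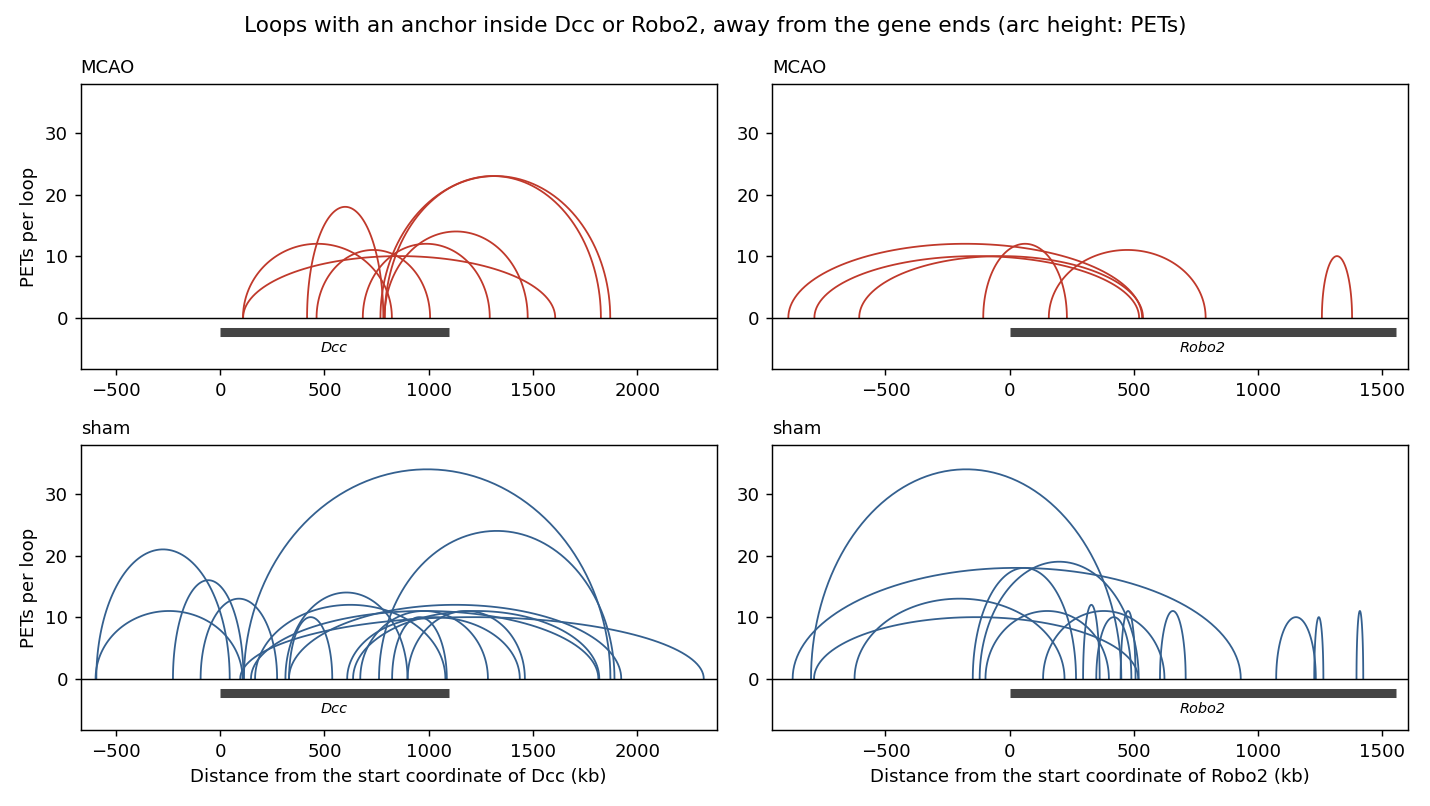
Loops with an anchor inside Dcc (left) or Robo2 (right) and none at the gene ends, in MCAO (top) and sham (bottom); the horizontal axis is the distance from the start coordinate of the gene in kb, arc height is the number of PETs and grey bars are the genes. Dcc has 8 arcs in MCAO and 17 in sham, and Robo2 has 6 and 15, most of them below 20 PETs.

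Beyond the members, 66 genes for co-receptors, further ligands and receptors, and intracellular signalling had 120 loops in MCAO and 91 in sham. The ratio was 1.32 (0.996 to 1.75), against 1.24 for all genes. More loops were listed in MCAO at 29 of these genes (43.9%, background 29.7%) and fewer at 16 (24.2%, background 21.3%). At least 3 more were found at 5 (7.58%, background 3.18%) and at least 3 fewer at 2 (3.03%, background 1.39%), with no test. Flrt3 and Flrt2, adhesion proteins that bind Unc5 receptors, had 7 and 3 and 11 and 8 loops in MCAO and sham. Farp1, a guanine nucleotide exchange factor of plexin signalling, had 4 and 1, the kinase gene Gsk3b 4 and 1, and Rgma, a repulsive ligand of the receptor neogenin, 5 and 2. Ablim1, an actin-binding protein, had 0 in MCAO and 3 in sham, and Enah, an actin regulator downstream of netrin and Slit receptors, had 1 and 4.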

How the data were processed

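Frozen cortex was processed for Hi-C with reagents of Arima, per the labels' protocols. HiC-Pro and Bowtie2 were used with mm10, per the submitters' processing notes, without versions. The sources used here name neither the loop caller nor any pooling of cortices. PET counts are whole numbers deposited by the authors, with at least 10 per loop. The signal called density was deposited by the authors, and read here as PETs per kb of both anchors per 1000000 PETs of the library, which gave the depths used (40550536 PETs in MCAO and 34974213 in sham). The authors' deposited p-values, of which the hypergeometric one ranked loops within a list, reach an FDR of 0.05 at most. The enrichment ratio columns were deposited by the authors without a definition and were not used.

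Gene ends came from a RefSeq table on GRCm38.p6, the assembly of mm10. Start sites and strands came from RefSeq promoters, which hold 59 of the 69 members. Shares have exact Clopper-Pearson intervals and ratios exact binomial intervals. Whether PETs are independent molecules is unknown. Where 1 was added to sums of gene-loop pairs, the log2 ratio is given. Groups came from the sample titles. The matching and counting were tested on simulated loops. Python 3.11.15, pandas 2.3.3, numpy 2.4.6, scipy 1.17.1 and matplotlib 3.10.9 were used.

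Genes are named where they are among the 2 of a family with the most loops, differ by at least 3 loops, join another member, hold a shared loop of at least 20 PETs in both lists, or hold the highest loop of a library. Other genes were named after their values were seen. The members and lists were chosen with earlier results of these data known. Alternatives covered the window, PET minimum, list quality, list length, depth, span, the rule for shared loops and the whole gene.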

Additional observations from a re-analysis of the deposited data

How the results depend on the processing

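Over 17 results and 12 settings, 134 of 144 alternatives stayed within the reported interval or within 1.5 times the reported count, 9 moved and 1 reversed. Many of these intervals are wide, such as 0.815 to 11.8 for Slits and Robos, so staying within them is a weak check. A member ratio of 1.05, for example, still lay within its interval. The reversed one is the log2 ratio of gene-loop pairs, 0.42 at gene ends (all genes 0.28), which was -0.031 when any part of the gene was counted (231 and 236 pairs; all genes 0.22). This is by its construction the addition of interior loops. With at least 20 PETs the netrin family had a ratio of 1.00 and the semaphorins 0.556, and the number of genes with more loops in MCAO was 12. With at least 15 PETs the number with fewer was 11. The median span was 626 kb with at least 15 PETs and 646 kb with at least 20 in MCAO, and 862 and 826 kb in sham. With midpoints within 0.5 anchor widths, 23.4% of MCAO loops were shared. The interval of the member ratio held 1 in 7 of its 8 alternatives, with ratios of 1.05 to 1.32, and that of the netrin family held 1 in 4 of 8, with 1.00 to 2.13. Interior loops had ratios of 0.542 to 0.765 over 9 settings, and the interval held 1 with at least 15 PETs, with at least 20 PETs and without Dcc and Robo2. Settings for interior loops were chosen after seeing the data. No paired analysis was possible because the groups share 1 replicate number, with 1 library each. The PET minimum of 10 limits what an unlisted loop can show.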
